A study of Mus musculus with 2 samples.

Results

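A set of 47 genes whose products build the mitotic spindle, carry the chromosomes and split the daughter cells was examined in sorted haematopoietic stem and progenitor cells with and without Trmt6. The genes were given as a list of symbols, and all 47 were present among the 27998 genes of the feature table, which was the same for both libraries. Single-cell RNA was captured from Lin- Sca-1+ c-Kit+ (LSK) bone marrow cells of 3-month-old mice. The labels give 1 library as WT, with the genotype Trmt6fl/fl, and 1 library as cKO, with the genotype Trmt6fl/fl, MX1-cre, so the floxed alleles were shared and the recombinase was not. The study instead describes controls with Mx1-Cre, an interferon-inducible recombinase, and no floxed alleles, and pIpC injection of both genotypes. The number of mice behind each library was not stated. Genotype and library therefore cannot be told apart, no test across samples was possible, and all intervals given below are 95% intervals that cover counting error only. Intervals of levels and ratios treat each UMI as an independent draw, so they also leave out the spread between cells.

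During mitosis, cyclin B and Cdk1 drive entry, kinesin motors and microtubule binders shape the spindle, and kinetochores attach the chromosomes to it. The spindle checkpoint holds back the anaphase-promoting complex (APC/C) until every chromosome is attached, after which the midzone and a contractile ring complete cytokinesis. Most of these genes are transcribed from the end of S phase to mitosis, and quiescent stem cells hold little of their RNA. Many of their promoters carry a cell cycle genes homology region (CHR), at which the DREAM and B-Myb–MuvB complexes are known to act, and CCAAT boxes, which bind NF-Y.

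Promoter windows of RefSeq (GRCm38.p6, 250 bases before to 50 bases after the start) were matched to 39 of the 47 genes, with 42 windows in all. The letters of the CHR (TTTGAA or TTTAAA, on either strand) were found in 36 of the 42 windows (85.7%) and in 27.6% of all 32851 windows. CCAAT, on either strand, was found in 33 windows (78.6%) and in 37.4% of all windows. Both motifs were present in 31 windows (73.8%), against 10.7% of all windows, and 23 windows held CCAAT more than once (54.8%, against 11.7% of all). These letters describe the windows and show no binding. The windows below are shown because they belong to genes at the low end of the comparison between genotypes (Kif23, Cenpf, Mki67 and Nusap1) and to genes with a ratio near 0 (Cdk1, Cdc20 and Ube2c). They were chosen after the values were seen. Capitals mark CHR and CCAAT letters, and each sequence runs from 5′ to 3′ on the strand of the gene.
Kif23, chr9:61946750-61947049, minus strand: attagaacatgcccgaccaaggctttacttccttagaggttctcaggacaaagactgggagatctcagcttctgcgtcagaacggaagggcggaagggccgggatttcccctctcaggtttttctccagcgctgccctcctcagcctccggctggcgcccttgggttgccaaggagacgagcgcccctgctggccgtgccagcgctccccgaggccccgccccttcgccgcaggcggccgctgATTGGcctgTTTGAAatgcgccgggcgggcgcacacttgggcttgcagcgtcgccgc
Cenpf, chr1:189688037-189688336, minus strand: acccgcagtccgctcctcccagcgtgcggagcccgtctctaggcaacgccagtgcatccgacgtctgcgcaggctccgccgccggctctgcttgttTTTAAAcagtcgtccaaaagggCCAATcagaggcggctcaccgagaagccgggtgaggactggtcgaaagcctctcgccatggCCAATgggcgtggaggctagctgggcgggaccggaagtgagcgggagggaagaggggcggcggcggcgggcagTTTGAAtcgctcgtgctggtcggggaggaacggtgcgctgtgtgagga
Mki67, chr7:135716330-135716629, minus strand: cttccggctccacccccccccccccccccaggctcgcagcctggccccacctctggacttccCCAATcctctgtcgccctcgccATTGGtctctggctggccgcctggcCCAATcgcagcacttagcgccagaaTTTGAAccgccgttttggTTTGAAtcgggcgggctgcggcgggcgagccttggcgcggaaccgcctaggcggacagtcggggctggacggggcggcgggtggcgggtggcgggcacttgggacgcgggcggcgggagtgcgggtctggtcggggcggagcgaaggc
Nusap1, chr2:119618048-119618347, plus strand: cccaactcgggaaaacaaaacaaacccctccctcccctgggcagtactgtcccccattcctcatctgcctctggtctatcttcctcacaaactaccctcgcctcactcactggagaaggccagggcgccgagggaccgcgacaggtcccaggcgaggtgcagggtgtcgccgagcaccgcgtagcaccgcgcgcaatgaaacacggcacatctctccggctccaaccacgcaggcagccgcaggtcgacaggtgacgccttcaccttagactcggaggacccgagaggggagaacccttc
Cdk1, chr10:69352863-69353162, minus strand: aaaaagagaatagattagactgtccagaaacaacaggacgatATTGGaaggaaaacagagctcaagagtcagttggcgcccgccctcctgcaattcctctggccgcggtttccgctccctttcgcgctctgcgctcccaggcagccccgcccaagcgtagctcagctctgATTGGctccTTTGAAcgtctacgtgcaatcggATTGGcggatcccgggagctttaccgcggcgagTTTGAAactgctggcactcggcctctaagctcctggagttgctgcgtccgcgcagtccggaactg
Cdc20, chr4:118437294-118437593, minus strand: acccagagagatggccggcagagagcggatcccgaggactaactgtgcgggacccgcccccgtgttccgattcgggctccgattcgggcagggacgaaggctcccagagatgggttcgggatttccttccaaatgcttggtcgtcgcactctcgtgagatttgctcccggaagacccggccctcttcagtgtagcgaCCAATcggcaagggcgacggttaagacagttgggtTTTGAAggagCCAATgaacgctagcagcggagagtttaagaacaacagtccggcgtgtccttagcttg
Ube2c, chr2:164769679-164769978, plus strand: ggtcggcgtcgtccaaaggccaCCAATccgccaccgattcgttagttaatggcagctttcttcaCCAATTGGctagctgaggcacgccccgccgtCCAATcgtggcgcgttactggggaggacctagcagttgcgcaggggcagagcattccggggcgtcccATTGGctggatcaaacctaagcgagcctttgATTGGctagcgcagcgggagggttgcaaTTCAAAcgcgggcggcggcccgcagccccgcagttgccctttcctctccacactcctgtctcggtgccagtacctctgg
Kif23 carried 1 CHR 2 bases past the start and 1 CCAAT, and Cenpf also had a CHR 2 bases past the start. Cdk1 had 2 CHR letters, and Ube2c had 1 CHR with 6 CCAAT letters. Nusap1 had neither motif in its window, and neither did Mad2l1 (values below). In these 7 windows, the letters did not separate the genes at the low end from those near 0.

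The WT library held 8869 barcodes with 47991455 UMIs and the cKO library 9260 barcodes with 98323201 UMIs, and 24 barcodes occurred in both. The limits of the study and a doublet score left 8152 cells in WT and 8488 in cKO, whose median UMIs were 4110 and 10005. Because of this gap in depth, 2000 UMIs were drawn at random from each cell (thinning), and 205 WT and 105 cKO cells below that number were dropped. Levels are UMIs per 1000000 (CPM) over the 7947 WT and 8383 cKO cells that remained. Of the antigens used in the sort, Kit was lower in cKO (74.0 and 24.6 CPM) and Ly6a, which encodes Sca-1, was higher (46.6 and 157.5 CPM). Trmt6 was detected at 62.2 CPM in WT cells, and its log2 ratio of cKO over WT was -0.47 (-0.61 to -0.33). These are tags from the 3′ end of the transcript, and the sources used here do not say which part of Trmt6 is deleted, so this value does not check the deletion.

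The 47 genes together were lower in cKO. Their sum was 3582 CPM in WT against 2958 in cKO, for a log2 ratio of -0.28 (-0.29 to -0.26), or a mean of 7.16 and 5.92 UMIs per thinned cell. Other settings gave from -0.53 (3000 UMIs per cell) to -0.18 (TMM factor). Of the genes at 20 CPM or more, Kif23, Nusap1, Cenpf, Hmmr and Mki67 lay furthest below in this draw, whereas the intervals of Cdk1, Cdc20, Ube2c, Bub3 and Ccna2 spanned 0. The order changed with the setting, and at 3000 UMIs per cell Kif11 (-0.84), Cenpa (-0.71), Prc1 (-0.70) and Ccnb2 (-0.69) lay below Hmmr (-0.65). The last 5 were not level under every setting. At 3000 UMIs per cell their intervals lay below 0, from -0.34 (Ccna2) to -0.14 (Cdc20), as they did with all UMIs counted (-0.26 to -0.08), and in another random draw Cdc20 was at 0.14 (0.03 to 0.24). With the TMM factor, 4 of the 5 had intervals above 0, with ratios of 0.16 (Ccna2), 0.11 (Cdk1 and Cdc20) and 0.09 (Ube2c), and with median-of-ratios size factors Cdk1 and Ube2c did. Of the 46 genes at a mean of 5 CPM or more, 41 had a ratio below 0 (58.1% of all genes did), and their median log2 ratio was -0.29, against -0.09 over all 8928 genes at that level. Foxm1, the remaining gene, was under this minimum.

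Few of the genes were past a log2 ratio of 0.5. At -0.5 or lower were 6 of 46 (13.0%), which is below the 18.4% of all genes tested, and none of the 46 was at 0.5 or higher, against 8.31% of all genes. The intervals lay below 0 for 35 of the 46 (76.1%), against 38.6% of all genes, and above 0 for 1 (Cdc25c), against 25.9%. The share past -0.5 turned with the cells and UMIs used. With 3000 UMIs per cell 28 of 47 genes (59.6%) were at -0.5 or lower, against 15.9% of all genes, and with all UMIs counted 19 of 47 (40.4%), against 16.7%, so it then lay above that of all genes. Scaling by median-of-ratios size factors moved all genes up, with 14.4% of all genes lower and 11.6% higher, and left 4 of the 46 genes lower and 1 higher. Tubb4b, Mad2l1, Bub3 and Ube2c then changed sign.

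**Figure D1:**
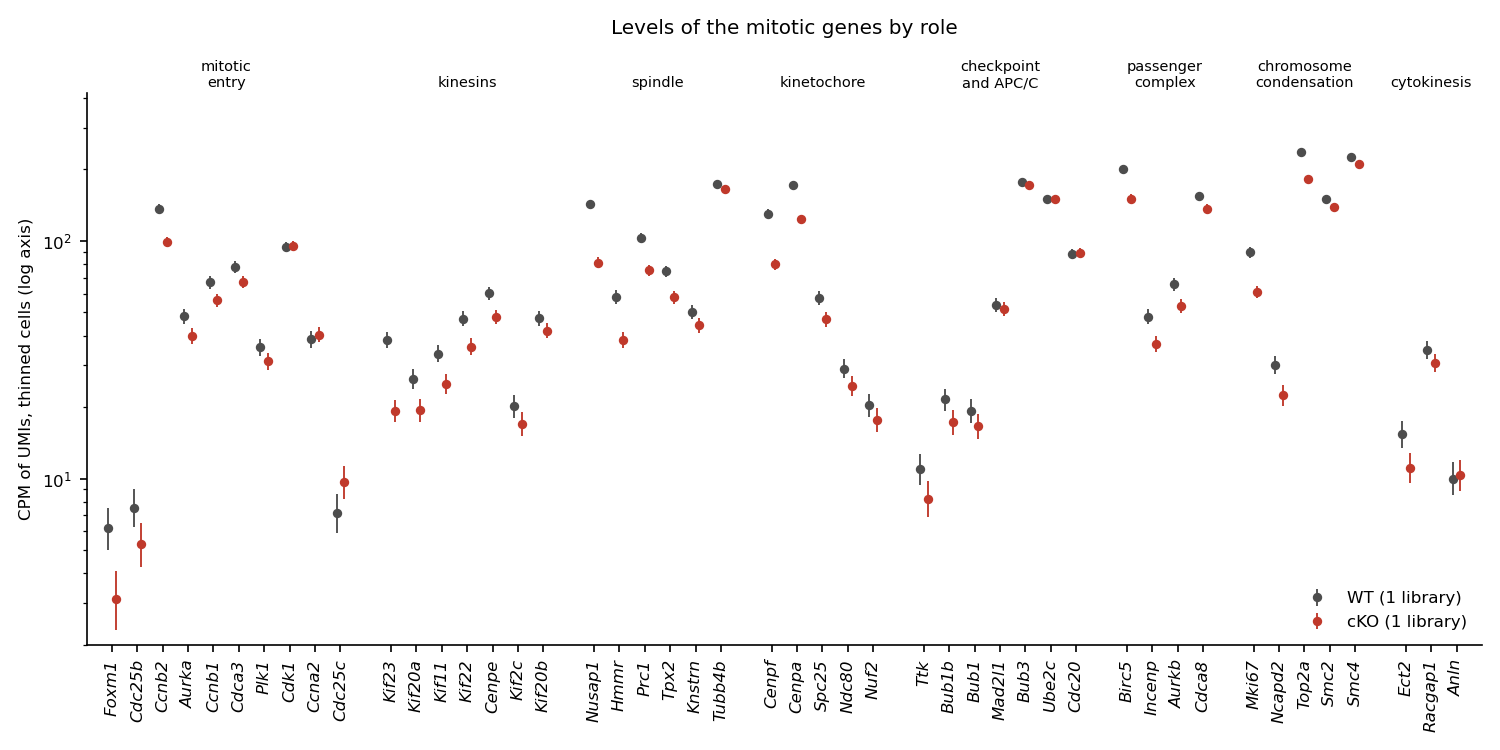
Level of each of the 47 genes in the WT (grey) and cKO (red) library, in CPM over thinned cells on a log axis, grouped by role and ordered by ratio within a role. Bars are exact 95% Poisson intervals of 1 library each. Kif23 stands at 38.4 and 19.3 and Nusap1 at 143 and 80.8, while Cdk1, Cdc20, Ube2c and Bub3 overlap.

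Among the genes of mitotic entry, cyclin B2 differed more than its partner kinase. Ccnb2 gave 137 CPM in WT and 98.7 CPM in cKO (log2 ratio -0.47, -0.56 to -0.38). Ccnb1 gave 66.9 and 56.2 CPM (-0.25, -0.38 to -0.12), and Plk1, a kinase of entry and spindle assembly, 35.6 and 31.1 CPM (-0.19, -0.37 to -0.02). The interval of Plk1 spanned 0 in another random draw (-0.13, -0.30 to 0.04), without doublet removal (-0.07) and under the 3 other scalings, and lay further below at 3000 UMIs per cell (-0.64, -0.78 to -0.50) and with all UMIs (-0.41, -0.49 to -0.33). Cdk1 itself stood at 94.1 and 95.4 CPM and Ccna2, cyclin A2, at 38.6 and 40.4 CPM, and both intervals of the ratio spanned 0. Foxm1, a transcription factor of G2 and M phase genes, was seldom captured, at 6.17 and 3.10 CPM (-0.98, -1.51 to -0.49). Its interval spanned 0 in another random draw (-0.26, -0.73 to 0.21), with 1000 UMIs per cell (-0.28) and without doublet removal (-0.32). It lay below 0 at 3000 UMIs (-0.58, -0.98 to -0.18) and with all UMIs (-0.59, -0.81 to -0.37). The 10 genes of this role summed to 518 CPM in WT and 446 CPM in cKO.

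All 7 kinesins had intervals below 0 in this draw, against 38.6% of all genes. In another random draw those of Kif20a and Kif20b spanned 0, and Kif22, Kif2c and Cenpe were not followed through the alternatives. Kif23, the motor of centralspindlin at the spindle midzone, gave 38.4 CPM in WT and 19.3 CPM in cKO, with its ratio at -0.99 (-1.19 to -0.80). Kif23 had the lowest ratio of the 47 genes in this draw, but Nusap1 lay below it in another random draw (-0.96 against -0.81), without doublet removal, without the upper limit on genes, and at 1000, 3000 or all UMIs. At least 1 UMI of it was found in 6.96% of WT and 3.61% of cKO cells. Kif11, which pushes the spindle poles apart, gave 33.6 and 24.9 CPM (-0.43). Kif20b, a kinesin of late cytokinesis, had the ratio nearest 0 of the group, at 47.2 and 41.9 CPM (-0.17, -0.32 to -0.02). Its interval spanned 0 in another random draw (-0.04, -0.18 to 0.11), at 1000 UMIs and under the 3 other scalings, and lay further below at 3000 UMIs (-0.41, -0.54 to -0.29) and with all UMIs (-0.29, -0.36 to -0.21). Kif20a, a motor that brings the passenger complex to the midzone, gave 26.2 and 19.4 CPM (-0.44), but its interval spanned 0 in another draw (-0.14, -0.36 to 0.07) and its ratio was 0.09 when cells were thinned to 1000 UMIs, so no direction is drawn from it.

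Among the spindle genes, Nusap1, Hmmr and Prc1 were lower and Tubb4b lay nearer 0. Nusap1, which bundles microtubules near chromosomes, gave 143 CPM in WT and 80.8 CPM in cKO (-0.82, -0.92 to -0.72). Hmmr, a spindle pole protein, gave 58.0 and 38.2 CPM (-0.60, -0.75 to -0.45). It was no longer past -0.5 without doublet removal (-0.35, -0.49 to -0.22), without the upper limit on genes (-0.46) or at 1000 UMIs per cell, though these intervals stayed below 0. Prc1, which crosslinks the midzone microtubules, gave 103 and 75.2 CPM (-0.45). Tubb4b, a beta-tubulin that resting cells also use, gave 173 and 166 CPM, with an interval from -0.14 to 0.01. It was lower with an interval below 0 in another random draw (-0.13), without doublet removal (-0.15), without the upper limit on genes (-0.16), at 1000 UMIs (-0.14), at 3000 UMIs (-0.30) and with all UMIs (-0.25). Its sequence is close to that of other beta-tubulins, so its count is less certain than the others.

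At the kinetochore, Cenpf and Cenpa were lower. Cenpf, a protein of the outer kinetochore in G2 and M phase, gave 130 CPM in WT and 79.9 CPM in cKO (-0.70, -0.80 to -0.60). Cenpa, the histone H3 variant that marks the centromere, gave 171 and 123 CPM (-0.47, -0.55 to -0.39). The 5 genes of the role summed to 408 and 292 CPM, the lowest ratio of the 8 roles (-0.48, -0.53 to -0.43).

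The checkpoint and APC/C genes had the summed ratio nearest 0, with sums of 521 CPM in WT and 505 CPM in cKO (-0.04, -0.09 to -0.0009). Cdc20, the activator of the APC/C, gave 88.2 and 88.9 CPM. Ube2c, its ubiquitin-conjugating enzyme, gave 150.2 and 149.5 CPM. Bub3, which is also made outside mitosis, gave 176 and 172 CPM, and Mad2l1, the checkpoint protein Mad2, gave 54.0 and 51.7 CPM. Mad2l1 had intervals below 0 at 3000 UMIs (-0.36, -0.48 to -0.24), with all UMIs (-0.16, -0.23 to -0.09) and without doublet removal (-0.14). In the main setting the intervals of these 4 genes spanned 0, with Cdc20 between -0.09 and 0.12, and 2 of the 7 genes of the role had intervals below 0, which is under the 38.6% of all genes.

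Among the genes of chromosome structure, Mki67 and Top2a were lower and the condensin cores nearer 0. Mki67, which coats mitotic chromosomes and is widely used as a proliferation marker, gave 89.6 CPM in WT and 61.0 CPM in cKO (-0.56, -0.67 to -0.44). Its ratio was nearer 0 than -0.5 without the upper limit on genes (-0.43) and under the 3 other scalings (-0.48 to -0.46). Top2a, the topoisomerase that untangles sister chromatids, gave 236 and 183 CPM (-0.37, -0.44 to -0.30). The cores Smc2 and Smc4 gave 150.4 and 139 CPM (-0.11, -0.20 to -0.03) and 225 and 210.4 CPM (-0.10, -0.17 to -0.03). At 3000 UMIs per cell their ratios were -0.38 and -0.25, and under the 3 other scalings both intervals spanned 0. All 4 genes of the chromosomal passenger complex, the Aurkb kinase complex of chromosome alignment and cytokinesis, had intervals below 0 (38.6% of all genes did), with a summed ratio of -0.31. The 3 cytokinesis genes summed to 60.1 and 52.0 CPM (-0.21). The genes of the 47 without values here lay between Cdc25b (-0.51) and Cdc25c (0.43), phosphatases that activate Cdk1, both under 10 CPM.

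The lower sum was not spread over all cells alike. The median was 3 UMIs of 2000 in both libraries, and cells with 5 or more were 39.8% of WT and 40.0% of cKO. Cells with 5 to 14 UMIs were more frequent in cKO, at 27.2% (26.2 to 28.2) against 20.3% (19.5 to 21.2) in WT. Cells with 15 to 24 UMIs were less frequent, at 10.3% (9.68 to 11.0) against 13.0% (12.3 to 13.8). Those with 25 or more were 2.48% (2.16 to 2.84) of cKO and 6.42% (5.89 to 6.98) of WT cells. As a reference for free RNA, 33 cKO cells with 100 or more UMIs of Jchain, a gene of antibody-secreting cells, were read. They held a mean of 1.06 UMIs of the 47 genes, and the highest cell held 12 of their 35 UMIs. WT had no cell with that much Jchain. This reference was chosen after the data were seen, because the cells gated by T or NK markers (6.72 UMIs of the 47 genes in WT and 5.22 in cKO) owed 88.1% of their marker UMIs in WT to Nkg7 and Cd3e was at 0 there.

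**Figure D2:**
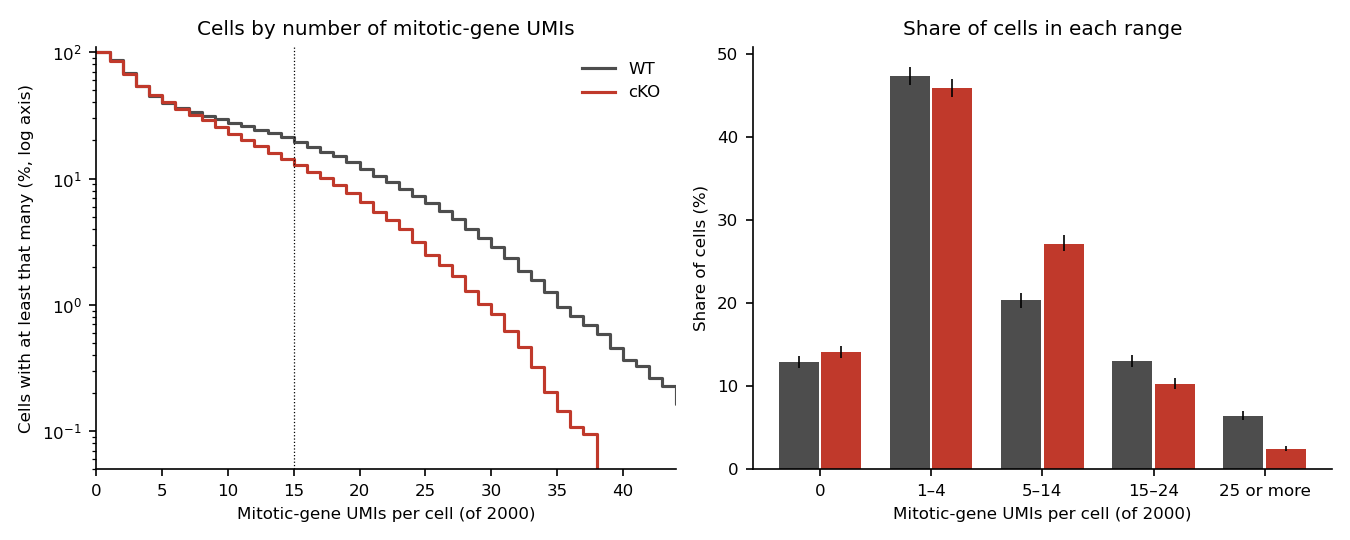
Left, share of thinned cells (percent, log axis) with at least the number of mitotic-gene UMIs on the horizontal axis, for WT (grey) and cKO (red), with a dotted line at 15 UMIs. Right, share of cells (percent) in 5 ranges of that number, with Clopper-Pearson 95% intervals. The curves part above about 8 UMIs, and the 5 to 14 range holds 27.2% of cKO and 20.3% of WT cells.

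A cell was placed in the mitotic gate when it held 15 or more UMIs of the 47 genes. The gate held 1543 WT cells (19.4%) and 1073 cKO cells (12.8%), a difference of -6.62 percentage points (-7.75 to -5.48). These cells held 61.5% of the genes' UMIs in WT and 44.8% in cKO, with means of 22.7 and 20.7 UMIs per cell. Leaving out cells with 10 or more UMIs of neutrophil granule markers gave -6.27 points. The gate depends on thinning. Without it the deeper cKO cells passed more often, 48.1% against 36.7%, and with 3000 UMIs per cell, which leaves out 25.8% of WT and 2.07% of cKO cells, the difference was -11.4 points.

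The total UMIs of a cell went with the share. Gate cells had a median of 5946 UMIs in WT and 11766 in cKO before thinning, and the other cells 3720 and 9717. With the cells of each library split into 4 equal groups by total UMIs, the gate held 3.27% of WT and 4.87% of cKO cells in the lowest group and 8.10% and 8.74% in the next. In the upper groups it held 30.1% of WT and 18.2% of cKO cells, and 36.1% and 19.4%. The lower share in cKO thus lay among cells rich in RNA for their library. Total UMIs per cell also reflect sequencing depth, and its part in the result was not tested.

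Each gene was also measured inside the mitotic gate, in cells with 15 or more UMIs of the other 46. Its own UMIs did not choose the cells, but the other genes did, and these were lower in cKO. Fewer cKO cells entered the gate, and the reason was not tested. A gate on genes that are lower in cKO can by itself raise ratios on both sides of it. The values are therefore a description, and no direction is drawn from a ratio above 0. The median log2 ratio was -0.20, against -0.06 over the 8725 genes tested in these cells. At -0.5 or lower were 4 of the 47, which is 8.51% against 19.2% of all genes, and 1 was at 0.5 or higher, against 13.1%. The 4 were Foxm1, Kif23, Ncapd2 and Mki67, and the 1 was Cdc25c, of which Ncapd2 and Cdc25c are named only because their values stood out.

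Kif23 kept a low ratio inside the gate, with 107 and 60.4 CPM (-0.82, -1.13 to -0.53). Mki67 gave 278 and 182 CPM there (-0.61, -0.79 to -0.43). Nusap1 was at 519 and 372 CPM (-0.48) and Cenpf at 497 and 380.2 CPM (-0.39), so their ratios were nearer 0 than over all cells. Ube2c and Cdc20 had ratios above 0 on both sides of the gate, with 0.52 and 0.33 outside. Inside, Ube2c gave 591 CPM in WT and 753 CPM in cKO (0.35, 0.25 to 0.45), and Cdc20 295 and 369 CPM (0.32, 0.18 to 0.47). Ccnb1, Plk1 and Cdk1 had intervals that spanned 0. Over the 47 genes, the interval lay below 0 for 22 (46.8%, against 18.6% of all genes), above 0 for 3 (6.38%, against 14.4%) and spanned 0 for 22.

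Outside the gate, where the same limit holds, the median over the 44 genes at 5 CPM or more there was 0.09, against -0.08 over all genes, and 13 of the 44 intervals lay above 0 (29.5%, against 25.4% of all genes) and 3 below (6.82%, against 36.8%). Ccna2 gave 18.0 CPM in WT and 27.5 CPM in cKO (0.61, 0.38 to 0.85) and Cdk1 58.5 and 71.1 CPM (0.28, 0.15 to 0.42). The 3 intervals below 0 in these cells were those of Kif23 (-0.73), Nusap1 (-0.52) and Cenpf (-0.25). These 3 genes had intervals below 0 on both sides of the gate.

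**Figure D3:**
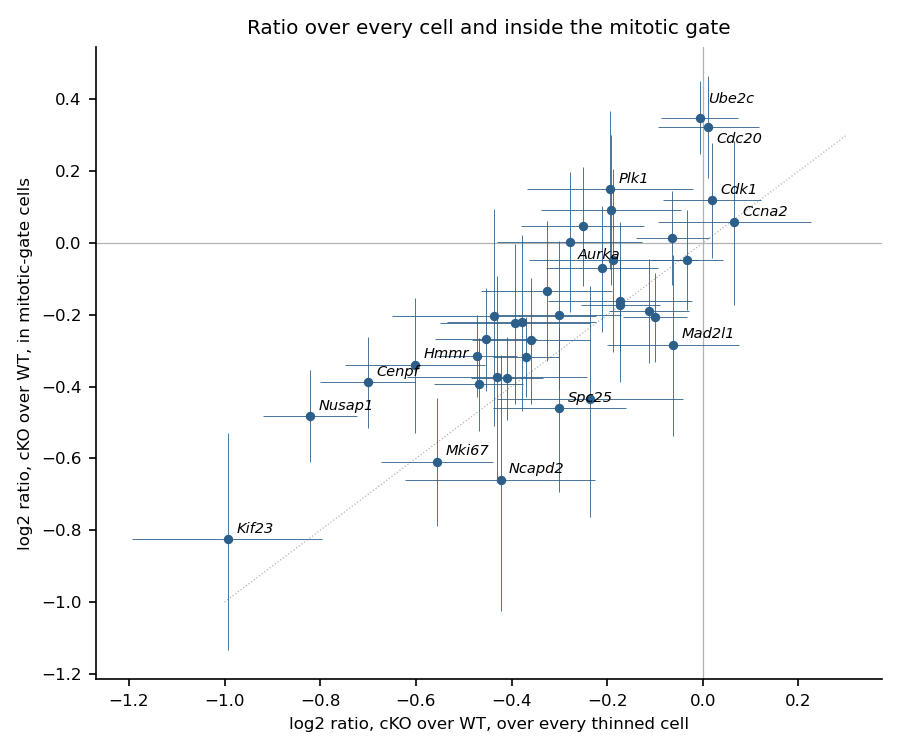
log2 ratio of cKO over WT across every thinned cell (horizontal) against the ratio in cells with 15 or more UMIs of the other 46 genes (vertical), for the 37 genes at a mean of 20 CPM or more. Bars are 95% counting intervals and the dotted line marks equal ratios. The gate uses genes that were lower in cKO, which can raise ratios inside it. Kif23 is lowest on both axes (-0.99 and -0.82), and Ube2c and Cdc20 lie near 0 on one axis and at 0.35 and 0.32 on the other.

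The genes differed in how much S phase RNA their cells held. For each gene the mean UMIs of 42 S phase genes in cells with a UMI of the gene were divided by the mean in cells without one. Over the 37 genes at 20 CPM or more, this quotient ran from 0.74 (Cenpa) to 1.39 (Top2a) in WT and from 0.71 to 1.23 in cKO, with the same genes at the ends. Cenpa, Ccnb2, Ccnb1 and Ube2c, with values from 0.74 to 0.80 in WT, were found in cells poor in S phase RNA. Top2a, Smc2 and Cdk1 were found in cells rich in it. The order was similar in both libraries (Spearman 0.93 over 37 genes measured in the same cells), and 32 of the 37 quotients were lower in cKO. The quotient showed little relation to the ratio between genotypes, with Spearman 0.21 for the WT and 0.26 for the cKO quotient. The S phase genes themselves summed to 2902 CPM in WT and 3198 CPM in cKO (0.14, 0.12 to 0.16), opposite in sign to the mitotic genes, and 28 of the 42 were above 0.

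In cells with stem markers the mean had the opposite sign to the whole library. In the 427 WT and 562 cKO cells with 3 or more UMIs of stem markers such as Hlf, Procr and Mecom, the 47 genes gave means of 4.37 and 4.97 UMIs (log2 ratio 0.19, 0.10 to 0.27), while the median was 2 UMIs in both libraries. This interval leaves out the spread between cells, and whether the difference exceeds that spread was not tested. The mitotic gate held 9.13% (6.58 to 12.3) of these WT cells and 12.1% (9.52 to 15.1) of the cKO cells, and the interval of the difference, from -1.10 to 6.90 points, spanned 0. Ube2c had 54 UMIs in WT and 150 in cKO there (1.07, 0.62 to 1.55), and Prc1 42 and 88 (0.66, 0.12 to 1.24). Kif23 (36 and 22 UMIs) and Mki67 (58 and 49) were the 2 genes of 46 at 5 CPM or more there whose intervals lay below 0, against 12.9% of all genes in these cells, and 6 lay above (13.0%, against 7.9%). The markers themselves moved apart between the libraries. The 9 stem markers had a summed log2 ratio of 0.35, and of the 8 tested, 5 were at 0.5 or higher and 1 at -0.5 or lower. Procr (1.15), Esam (1.15), Mllt3 (1.01) and Mecom (0.89) were higher in cKO, while Hlf (-0.19, -0.29 to -0.09) and Pdzk1ip1 (-0.51) were lower. Hlf gave 37.2% of the gate's marker UMIs in WT and 22.6% in cKO, so the gates need not hold the same cells. Just at the limit of 3 UMIs were 264 WT and 347 cKO cells, and 670 and 941 held 2.

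Cells with lymphoid-primed markers, mainly Dntt, had the sign of the whole library. The 713 WT and 191 cKO cells gave means of 7.31 and 5.28 UMIs (-0.47, -0.57 to -0.37), and the mitotic gate held 21.9% (18.9 to 25.1) and 10.5% (6.51 to 15.7) of them. The 241 WT and 38 cKO cells with megakaryocyte markers, mainly Pf4, gave 8.68 and 7.24 UMIs (-0.26, -0.45 to -0.08), with 24.5% and 21.1% in the gate. The 1335 WT and 84 cKO cells with early myeloid granule markers gave 9.19 and 6.39 UMIs, and the 57 WT and 574 cKO cells with erythroid markers gave 6.88 and 6.52 UMIs. In cKO, 94.5% of the erythroid marker UMIs were Hbb-bt. The 15 WT and 117 cKO cells with B lineage markers gave 13.5 and 4.96 UMIs, and the 117 WT and 40 cKO cells with mast or basophil markers had a log2 ratio of -0.59. Means were lowest in the stem gate in WT, and in the B lineage and stem gates in cKO. Marker gates overlap, and WT stem-marker cells held a median of 3 UMIs of early myeloid granule genes, against 1 in cKO.

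**Figure D4:**
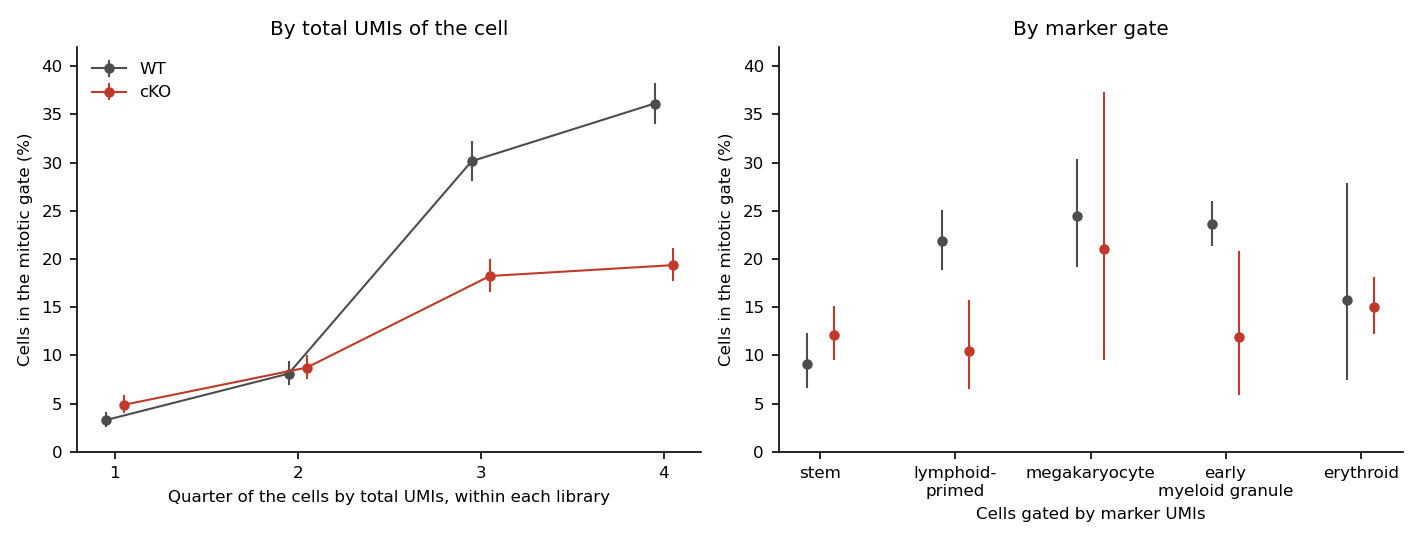
Share of cells in the mitotic gate (percent) for WT (grey) and cKO (red). Left, in 4 equal groups of cells by total UMIs within each library. Right, in cells gated by marker UMIs. Bars are Clopper-Pearson 95% intervals. The libraries part in the upper groups by total UMIs, at 36.1% and 19.4% in the highest, and the stem gate is the one with the higher cKO value.

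Other cell contents moved with genotype as well. Neutrophil granule markers summed to 3978 CPM in WT and 6.20 CPM in cKO, with all 8 tested of 9 lower and Chil3, Cd177 and Retnlg at 0 in cKO. No cKO cell of 8383 held 10 UMIs of them, a count that still permits 0.0358% of cells, and 74 WT cells did. Early myeloid granule markers summed to 3867 and 640 CPM with 5 of 5 lower, and 8 immediate early genes, which respond to cell handling, to 4631 and 1071 CPM with 7 lower. Lymphoid-primed and megakaryocyte markers were lower, at summed log2 ratios of -1.79 (3 of 3 tested) and -1.58 (4 of 4), with Gp6 at 0 in both libraries and the scarce Rag1 higher in cKO (3 and 26 UMIs). The T or NK sum (-1.02) followed Nkg7 (546 and 258 CPM), with Ccl5 (-0.68) and Ms4a4b (-0.86) also lower, while Cd3g (1 and 14 UMIs), Cd2 (3 and 12) and Il2rb (2 and 29) were higher in cKO. B lineage markers were higher (0.83, 5 of 6 tested), while Cd79b, the other one tested, was lower (57.8 and 43.4 CPM, -0.41). The erythroid sum (2.03) was that of Hbb-bt (24.7 and 259 CPM), and Klf1 (-1.62), Gata1 (-1.58), Car1 (-1.12) and Hba-a1 (-0.81) were lower, while Epor (4.03 and 6.26 CPM, 0.63) was higher. The mast or basophil sum (-0.08) joined lower Cpa3 (-2.02) and Ms4a2 (-0.97) with higher Prss34 (1.68) and Cma1 (0 and 300 UMIs). Without the neutrophil granule cells the summed ratio of the 47 genes was -0.27, much as with them. For the other lists their part in the result was not tested.

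The wider machinery of mitosis was taken from a list of 120 other genes, of which 116 were tested. In cKO 16 were at -0.5 or lower (18.4% of all genes were) and 4 at 0.5 or higher (8.31% of all), and the median log2 ratio was -0.14. Over all genes, 38.6% of intervals lay below 0 and 25.9% above. Cohesin, which holds sister chromatids together, had 12 of 17 intervals below 0 and none above, from Stag2 (-0.61) to Esco1 (0.12). The 6 other kinesins tested ran from Kif18b (-0.74) to Kif2a (0.15), with 5 intervals below 0. The 3 other cytokinesis genes had the lowest median (-0.63), from Arhgap11a (-0.70) to Cep55 (-0.22).

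Kinetochore genes had 10 of 29 intervals below 0 and 4 above, near or under the shares of all genes, from the centromere chaperone Hjurp (37.9 and 22.4 CPM, -0.76) to Pmf1 (78.8 and 109.9 CPM, 0.48). Subunits of the APC/C had 7 of 17 below and 4 above, also near those shares, from Anapc13 (-0.53) to Anapc16 (0.47). Condensin (Ncapg2 at -0.19 to Ncapg at 0.09) and checkpoint genes (Zwilch at -0.33 to Trip13 at 0.33) had none past 0.5 in either direction. The widest range was that of the 21 spindle and centrosome genes, from Aspm, a spindle pole protein, at 15.5 and 8.23 CPM (-0.91, -1.23 to -0.61) to Gtse1, a microtubule protein of G2 phase, at 5.35 and 11.6 CPM (1.11, 0.74 to 1.50). Other genes of mitotic entry ran from Lin37 (-0.50) to Mybl2 (0.51), which encodes B-Myb. Pooled over the roles, the shares of this wider list past -0.5 and 0.5 were below those of all genes. This did not hold in every role. Of the 21 spindle and centrosome genes, 6 were at -0.5 or lower and 3 at 0.5 or higher, against 18.4% and 8.31% of all genes. Intervals of cohesin and kinesin genes lay below 0 more often than those of all genes, as given above.

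**Figure D5:**
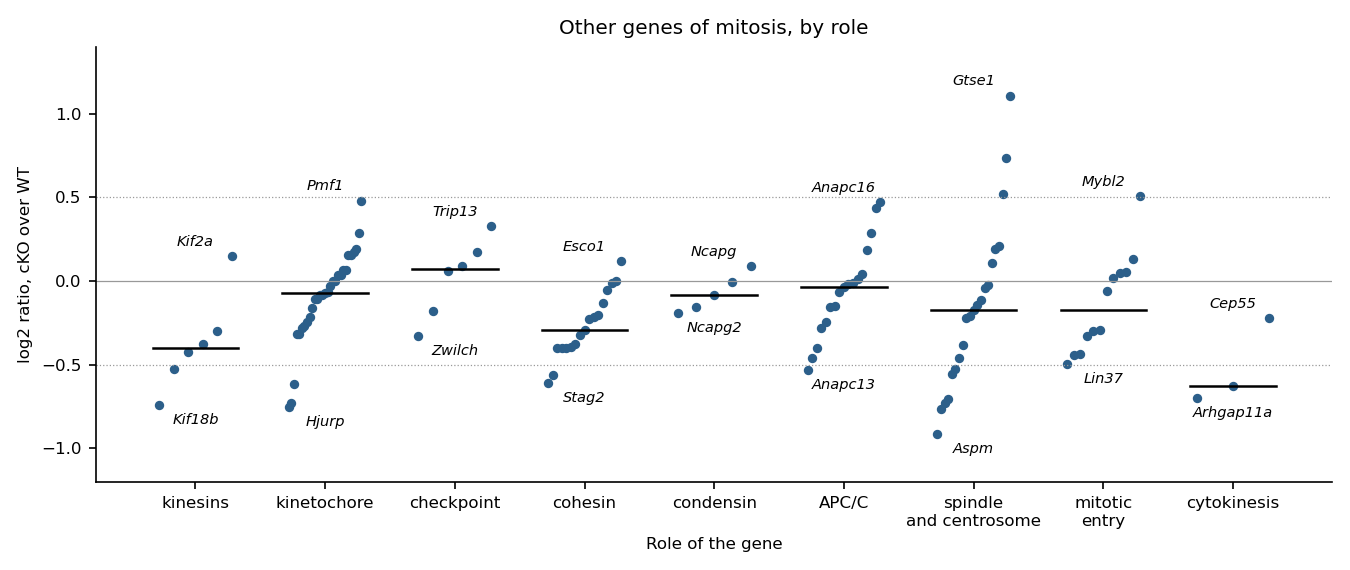
log2 ratio of cKO over WT for 116 other genes of mitosis by role. Each point is 1 gene, ordered by value within a role, the black line is the median of the role and dotted lines mark -0.5 and 0.5. Cohesin and kinesin genes lie mostly below 0, and spindle and centrosome genes span from -0.91 to 1.11.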

How the data were processed

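The 2 deposited count matrices were used, with UMI counts per gene and barcode that the authors made with Cell Ranger 6.0.0 on GRCm38 (mm10). The labels name the v2 kit and the methods of the study v3. Cells were kept with over 200 and under 4000 (WT) or 4500 (cKO) genes, under 10% (WT) or 5% (cKO) mitochondrial UMIs and under 5% hemoglobin UMIs. Likely doublets were removed by a score from artificial doublets, at 0.8% per 1000 barcodes (7.09% of WT and 7.41% of cKO barcodes). Kept cells were thinned at random to 2000 UMIs, so that depth did not set the counts per cell. Each log2 ratio divides cKO by WT after 0.5 prior counts were added, and intervals are exact (Poisson for CPM, conditional binomial for ratios, Clopper-Pearson for shares; scipy 1.17.1), combined by Newcombe's way for differences of shares. Genes at a mean of 5 CPM or more were tested, and called means past a log2 ratio of 0.5.

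Named were the 10 lowest and 10 highest ratios among genes at 20 CPM or more and 8 genes whatever their ratio (Mki67, Top2a, Ccnb1, Cdk1, Plk1, Foxm1, Bub3 and Tubb4b), and of the wider list the lowest and highest per role. Of that list, 5 genes were found under older symbols. Genes, lists and gates were chosen with earlier results of these data known. Alternatives covered doublets, thinning, scaling (TMM of edgeR 4.0.16), minimum level, fold and gate. Ratios and intervals were checked on simulated Poisson totals, which hold no spread between cells, so this check does not bear on that spread. Thinning was checked on a part of the WT barcodes. Precision is limited by 1 library per genotype and by the unequal depth.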

Additional observations from a re-analysis of the deposited data

Results flagged for a closer look

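UMIs of the 47 mitotic genes per cell moved in opposite directions in cells gated by different markers. In the stem gate the log2 ratio of cKO over WT was 0.19, with a median of 2 UMIs per cell in both libraries, whereas in the lymphoid-primed gate it was -0.47 and in the megakaryocyte gate -0.26. The counting intervals given above for these ratios leave out the spread between cells. In the stem gate, the interval of the difference in mitotic-gate share spanned 0. With 1 library per genotype the difference between gates was not tested.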

How the results depend on the processing

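No paired analysis was possible because each genotype had 1 library. The setting of 3000 UMIs per cell left out 25.8% of WT and 2.07% of cKO cells, so it also changed which cells were compared. With 3000 UMIs per cell, 28 genes were lower, the median log2 ratio of the genes was -0.56, the summed ratio -0.53 and the difference in gate share -11.4 points. Without thinning these were 19 genes, -0.46, -0.42 and 11.4 points, the last with the opposite sign, since a fixed gate takes more of the deeper cells. Median-of-ratios, TMM and totals without mitochondrial and ribosomal protein genes gave summed ratios of -0.19, -0.18 and -0.20, each with 1 gene higher (11.6%, 11.8% and 11.3% of all genes were). At a log2 ratio of -1 or lower, 0 genes were left (5.21% of all genes). Gates of 10 and 25 UMIs gave -4.97 and -3.94 points. Kif20a changed sign with 1000 UMIs, to a log2 ratio of 0.092, and the cause was not tested. Of 240 values of 24 named genes under alternatives, 213 kept their sign and 167 stayed within the counting interval. Leaving out the upper limit on genes per cell, chosen after seeing the data, gave 5 genes lower.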
